A study of Mus musculus with 2 samples.

Results

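Gamma-delta T-cells of the mouse parotid gland (PG) were taken from single-cell RNA counts as the Cd3+ cells that held transcripts of the delta chain constant gene Trdc, the scavenger receptor gene Cd163l1 or both. They were chosen by these RNA counts and numbered 110 of the 8664 cells kept, 49 of 3378 in the control library and 61 of 5286 in the library from irradiated (IR) glands. A cell was counted when it had at least 1 unique molecular identifier (UMI, a tag for 1 RNA molecule) of Cd3d, Cd3e or Cd3g, at least 1 of Cd163l1 or Trdc, and at least 2 over Cd163l1, Trdc and Tcrg-C1. Cells with a UMI of Cd8a, Cd8b1 or Ncr1, or with 3 or more over the B-cell genes Cd79a, Cd79b and Ms4a1, were left out. Both groups were wild-type (WT) C3H female mice of about 1 year of age. The IR mice had received 5 daily doses of 6 Gy (30 Gy in total) to the head and neck at 6 to 10 weeks of age and were sampled 10 months later, and the control mice were not irradiated. The cells of 2 mice per group were pooled into 1 library, so neither the mouse nor the library was replicated, and no test between the groups could be made. Before any filter, 22707876 UMIs came from 5550 barcodes of the control library and 23890757 from 7793 of IR. A gamma-delta T-cell had a median of 3355 UMIs in the control (652 to 10923) and 2419 in IR (919 to 14744).

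Most T-cells carry a receptor made of an alpha and a beta chain. A minor lineage carries a gamma and a delta chain instead. Many of its cells leave the thymus early in life with effector function already set, and settle in skin, gut, lung, fat and glands. One branch of the lineage makes interleukin 17. Another makes interferon gamma and keeps genes of circulating T-cells. Cxcr6 is a chemokine receptor of T-cells that stay in tissue, and Zbtb16 encodes PLZF, a transcription factor of innate-like T-cells.

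Gamma-delta T-cells made up 1.45% (95% interval 1.08 to 1.91) of the control cells and 1.15% (0.884 to 1.48) of the IR cells. Of all Cd3+ cells under the B-cell limit they were 3.87% (2.88 to 5.09) of 1265 in the control and 2.0% (1.53 to 2.56) of 3048 in IR. Their share of Cd3+ cells was thus lower in IR, where the other Cd3+ cells numbered 2987 against 1216 in the control. Intervals here and in what follows are exact and cover counting error only, not the spread between mice or libraries. The 2 libraries had 12 barcodes in common, 5 of them among the control cells kept and 7 among the IR cells kept, and none of these belonged to a gamma-delta T-cell.

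Trdc UMIs, 622 in the control and 439 in IR, were spread over 49 of 49 and 59 of 61 cells, and Cd163l1 was present in 42 and 39 cells with 206 and 160 UMIs. These genes chose the cells, so their levels are a description. A cell held a median of 12 Trdc UMIs in the control (2 to 35) and 6 in IR (0 to 23). The selected cells held 92.1% of the Trdc UMIs of all kept control cells and 86.8% of those of all kept IR cells. Cells just inside the limit, with a sum of 2 over the 3 genes, were 3 in the control and 7 in IR, and they held 6 and 12 Trdc UMIs. Cells just outside it, with 1 UMI, were 4 in the control and 21 in IR, and Cxcr6 was found in 0 and 3 of them.

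Of the markers that did not choose the cells, Cxcr6 was found in 77.6% (63.4 to 88.2) of the control and 62.3% (49.0 to 74.4) of the IR gamma-delta T-cells, against 0 of 774 control B-cells, which allows a share of up to 0.388%, and 0.261% of IR B-cells, whose median depths were 2539 and 2190.5 UMIs. After every cell was thinned to 1000 UMIs, which left out 1 gamma-delta T-cell in each library, the shares were 39.6% and 43.3%. The level of Cxcr6 was 822 UMIs per 1000000 of the class (CPM) in the control and 927 in IR, against 29.2 and 36.0 in other Cd3+ cells. Zbtb16 was found in 22 control and 17 IR cells, at 249 and 144 CPM, against 1.72 and 2.01 CPM in other Cd3+ cells. The 5 markers were therefore all present, but not in every cell. Among cells without a Cd163l1 UMI, Cxcr6 was found in 1 of 7 from the control and 2 of 22 from IR, and these cells are also described separately.

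**Figure D1:**
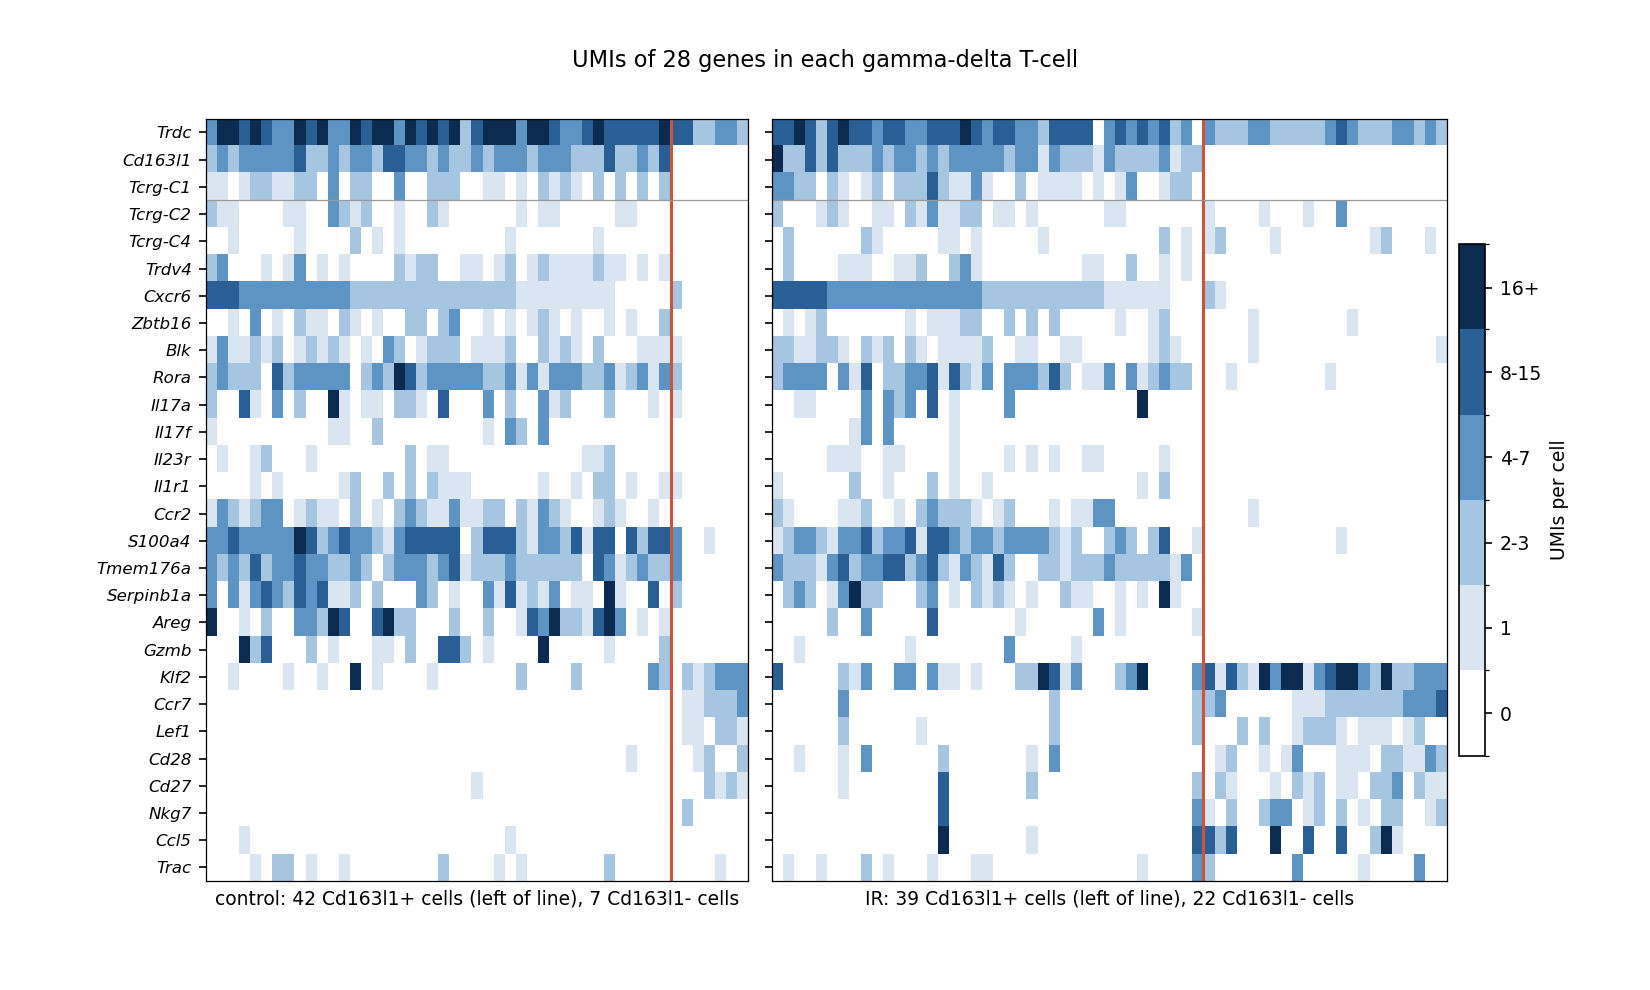
UMIs of 28 genes (rows) in each of the 49 control and 61 IR gamma-delta T-cells (columns), with darker blue for more UMIs and a red line between cells with and without a Cd163l1 UMI. The 3 genes above the grey line chose the cells. Rora, Tmem176a and S100a4 fill most columns left of the red line, and Klf2 and Ccr7 most columns right of it.

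The receptor genes show which chains' RNA was present. Trdc lies at chr14:54142851-54148868 on the plus strand (GRCm38), Trdv4, a delta variable segment, at chr14:54074905-54075515, and the gamma constant genes Tcrg-C1, Tcrg-C2 and Tcrg-C4 at chr13:19214103-19217024, chr13:19304649-19307551 and chr13:19344558-19352756. Trdv4 had 40 UMIs in 26 control cells and 24 in 15 IR cells, and 0 and 2 UMIs in all other Cd3+ cells. Tcrg-C1 had 53 and 65 UMIs, Tcrg-C2 26 and 40, and Tcrg-C4 9 and 22. Every cell with Trdv4 also held Cd163l1, and the delta segments Trdv1 and Trdv2-2 had 1 and 2 UMIs in IR and none in the control. Of the 15 gamma and delta genes that the choice of cells did not use, 4 were higher than in other Cd3+ cells in both libraries, where 16.9% of all genes were. These were Tcrg-C2, Tcrg-C4, Trdv4 and Tcrg-V6, the last with 1 UMI in each, and 7 (Tcrg-V3, Tcrg-V4, Tcrg-V5, Tcrg-V7, Trdv2-1, Trdv3 and Trdv5) had no UMI in any gamma-delta T-cell.

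The gamma constant genes are close copies, which bears on their counts. Their first 120 coding bases are shown for that reason, from the GENCODE M21 transcripts, with capitals where Tcrg-C2 or Tcrg-C4 differs from Tcrg-C1:
Tcrg-C1: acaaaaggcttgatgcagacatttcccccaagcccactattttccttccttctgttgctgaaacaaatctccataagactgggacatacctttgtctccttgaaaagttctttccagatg
Tcrg-C2: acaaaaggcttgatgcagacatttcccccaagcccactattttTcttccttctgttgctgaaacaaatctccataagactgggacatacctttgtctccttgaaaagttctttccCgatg
Tcrg-C4: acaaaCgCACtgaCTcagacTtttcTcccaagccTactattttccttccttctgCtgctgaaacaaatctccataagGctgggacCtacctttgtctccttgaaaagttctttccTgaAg
Tcrg-C2 differed from Tcrg-C1 at 2 of these bases and Tcrg-C4 at 14. Over the aligned coding sequence 97.4% of bases of Tcrg-C1 and Tcrg-C2 were identical, and 78.7% of those of Tcrg-C1 and Tcrg-C4. Reads of Tcrg-C1 and Tcrg-C2 can be split or lost between these copies by the counting, so their separate values are uncertain. Of the 27 control and 28 IR cells with Tcrg-C1, 14 and 12 also held Tcrg-C2, where the separate frequencies would give 9.37 and 10.1.

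Transcripts of the alpha and beta chains were also present. Trac, the alpha chain constant gene, had 15 UMIs in 10 control cells and 25 in 13 IR cells. Its level was 0.286 times (0.160 to 0.473) that of other Cd3+ cells in the control and 0.290 times (0.187 to 0.429) in IR, so Trac was lower in the gamma-delta T-cells of both libraries. The beta chain constant genes Trbc1 and Trbc2 were not lower in both: Trbc1 was at 1028 and 933 CPM against 672 and 939, and Trbc2 at 1053 and 1233 CPM against 1052 and 1462. In IR alone Trbc2 was lower, at 0.843 times (0.735 to 0.963). In B-cells, Trbc2 was found in 2.33% and 3.52% of cells, against 75.5% and 90.2% of gamma-delta T-cells. The counts do not tell a rearranged chain from a germline transcript, and the source of the beta chain RNA was not tested. Only 5 control and 2 IR cells held no UMI of Trac, Trbc1 or Trbc2.

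Around the receptor, Cd3g was at 3408 CPM in the control and 2560.2 in IR, against 726 and 949.8 in other Cd3+ cells, though all Cd3 genes helped to choose the cells. Among signalling genes outside the choice, Cd247, which encodes the zeta chain, had 51 and 55 UMIs and was 3.28 (2.41 to 4.39) and 2.25 times (1.68 to 2.95) the level of other Cd3+ cells. Lat, an adaptor of the receptor, was 3.13 and 1.54 times. The kinase gene Lck had only 4 UMIs in the control and 23 in IR, 0.139 (0.0378 to 0.357) and 0.485 times (0.307 to 0.729) the level of other Cd3+ cells. Cd5 and Cd6, surface receptors that dampen T-cell signals, had 3 and 2 and 1 and 4 UMIs. Of the 7 genes, Cd247, Lat and Zap70 were thus higher and Lck, Cd5 and Cd6 lower in both libraries, where 16.9% of all genes were higher and 37.4% lower. The kinase gene Zap70 was at 2.25 (1.37 to 3.51) and 1.54 times (0.934 to 2.40), and Fcer1g, the last of the 7 genes, had 0 control and 17 IR UMIs, the latter in 3 cells.

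To find what else set these cells apart, each gene was compared with the other Cd3+ cells of the same library. At least 25 UMIs in the gamma-delta T-cells, or expected there from the other cells, were required in both libraries, which left 828 genes besides those of the rule. Of these, 108 (13.0%) were at least 2 times higher in both libraries and 21 (2.54%) at most 0.5 times. The median ratio over all 828 was 1.19 in the control and 1.07 in IR. The minimum was met by 231 genes only through the gamma-delta T-cells, and 95 of the 108 were among them. Such genes had to be higher to be counted, so the counts are no measure of how many genes differ. Of the 597 genes that would have passed from the other cells alone, 13 were higher and 21 lower.

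Among the 828 genes, those furthest above other Cd3+ cells by the smaller of their 2 ratios were Blk, Ly6g5b, Tcrg-C2, Zbtb16, Krt83, Pxdc1, Actn2, Il17a, Cxcr6, Serpinb1a, Tmem176a, Hilpda, S100a4, Avpi1 and Tmem176b, in that order. Blk, at chr14:63372836-63417037 on the minus strand, encodes a Src family kinase best known from B-cells. It had 53 UMIs in 32 control cells and 38 in 26 IR cells, a level 385 times (142 to 1464) and 157 times (80.4 to 330.5) that of other Cd3+ cells. B-cells held Blk in 35.0% and 29.8% of cells, and other Cd3+ cells in 0.329% and 0.368%. Cells with 3 or more UMIs of the B-cell genes had been left out by the rule. Pax5, a B-cell factor, had no UMI in any gamma-delta T-cell. It had only 5 and 2 UMIs in all other Cd3+ cells, so its absence says little. The source of the Blk RNA was not tested. Among the less familiar genes, Ly6g5b, of the Ly6 family, was at 174 and 150 CPM against 0.644 and 1.90 in other Cd3+ cells. Krt83, a keratin known from hair, was at 249 and 255 CPM against 2.79 and 3.69. Actn2, an actin cross-linker known from muscle, was at 417 and 211 CPM against 6.01 and 5.59. These genes were picked for their ratios, mostly among those with few UMIs in other Cd3+ cells, so the ratios are a description.

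**Figure D2:**
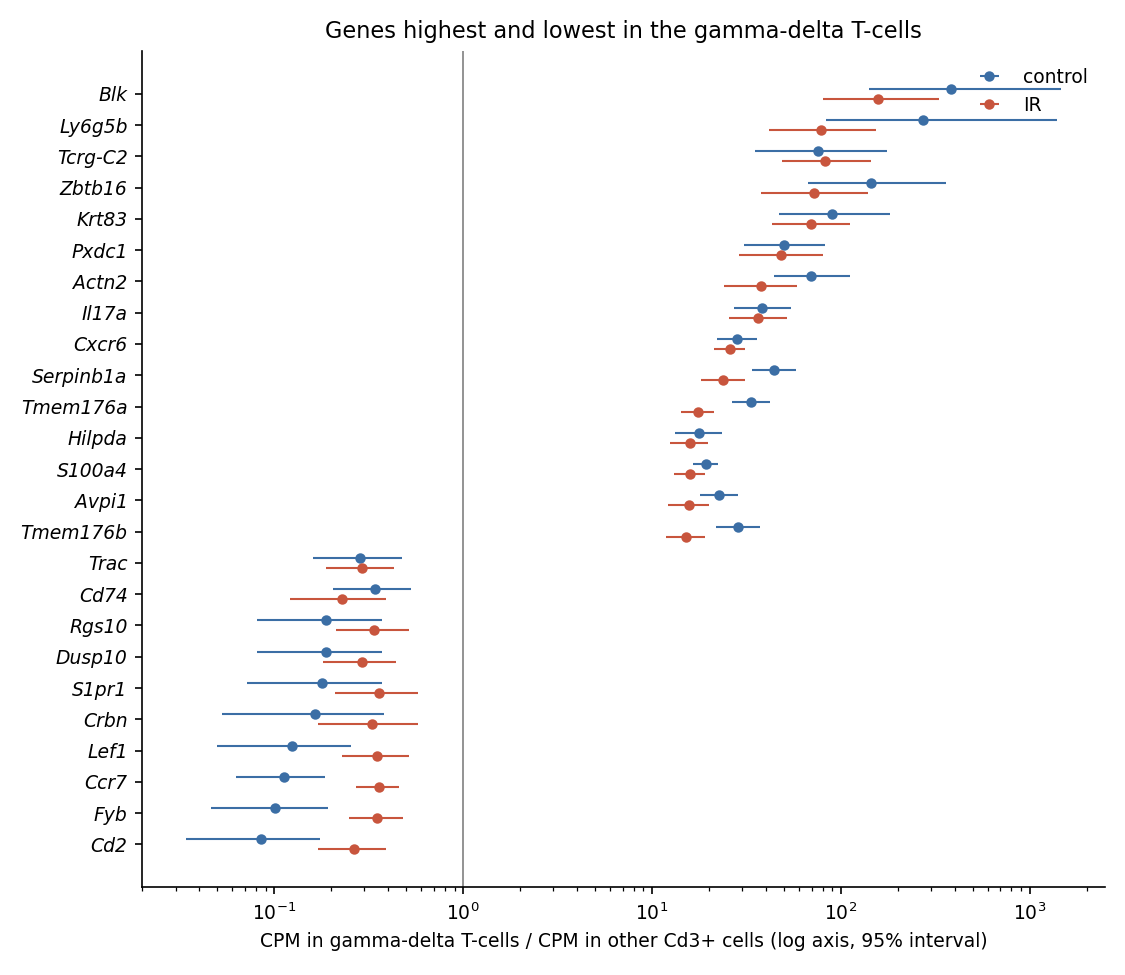
Ratio of the level (CPM) in gamma-delta T-cells to that in other Cd3+ cells (log axis) for the 15 highest and 10 lowest genes that met the UMI minimum, in the control (blue) and IR (red) library, with 95% intervals for counting error. Blk stands highest, at 385 and 157, and Cd2 lowest in the control, at 0.0847.

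Several of these genes belong to the type 17 programme. Of 21 genes listed for it beyond Cd163l1, 19 were higher than in other Cd3+ cells in both libraries, where 16.9% of the 19910 genes found in either kind of cell were higher in both without any minimum. Of the other 2, 5830411N06Rik had no UMI in the gamma-delta T-cells, with ratio intervals that held 1, and Il22 had none in the control. Without Cd163l1, which chose the cells, the list summed to 6168 CPM in the control and 4337 in IR, against 357 and 402 in other Cd3+ cells. For the 9 genes that passed the minimum the median ratios were 33.5 and 15.04, which the choice of genes with enough UMIs in these cells raises.

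Among its transcription factors, Rora, a nuclear receptor, was at 1146 and 766 CPM in 41 and 35 cells, 7.62 (6.44 to 8.98) and 5.82 times (4.84 to 6.94) other Cd3+ cells. Maf was 4.60 and 2.95 times higher, and Sox13 had only 1 and 2 UMIs. Rora was thus found in most of these cells, against 0.904% and 0.522% of B-cells.

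Among receptors that feed the programme, Il23r had 14 and 12 UMIs, Il1r1 23 and 11, and the interleukin 18 receptor gene Il18r1 30 and 25. Il23r was found in 10 and 12 gamma-delta T-cells, and in none of the 774 control and 766 IR B-cells, which allows a share of up to 0.388% and 0.392%. Ccr2, a receptor for inflammatory chemokines, was at 436 and 222 CPM against 11.4 and 18.5. Ccr6, often used to mark such cells, had only 4 and 5 UMIs. Tmem176a and Tmem176b, which encode membrane proteins, were 33.5 and 17.5 times and 28.5 and 15.04 times higher than in other Cd3+ cells. Serpinb1a, a protease inhibitor, was at 909.7 and 472 CPM against 20.6 and 19.8.

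Il17a, at chr1:20730905-20734496 on the plus strand, encodes the cytokine that names the branch. It had 82 UMIs in 21 of 49 control cells and 58 in 10 of 61 IR cells, with at most 18 and 19 in 1 cell. The level was 38.4 times (27.3 to 54.3) that of other Cd3+ cells in the control and 36.5 times (25.5 to 51.8) in IR. Il17f had 18 UMIs in 8 control cells and 11 in 4 IR cells, and 7 of the 8 and 3 of the 4 also held Il17a, where the separate frequencies would give 3.43 and 0.656. Il22 had no control UMI and 25 IR UMIs in 3 cells, of which 20 were in 1 cell. Of the cells with Il17a, 15 control and 4 IR cells held 3 UMIs or fewer, and the 6 others in each library held 57 of the 82 and 53 of the 58 UMIs. Il17a UMIs were thus concentrated in a few cells, as were most of those of Il22.

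Il17a, Il17f and the receptor gene Il23r share a feature in their promoters, and these are shown for that reason, as the 250 bases before the RefSeq start (GRCm38.p6). Capitals mark AGGTCA or its reverse complement TGACCT, the letters that nuclear receptors of the Rora kind are known to bind, searched on both strands:
Il17a, chr1:20730655-20730904, plus strand: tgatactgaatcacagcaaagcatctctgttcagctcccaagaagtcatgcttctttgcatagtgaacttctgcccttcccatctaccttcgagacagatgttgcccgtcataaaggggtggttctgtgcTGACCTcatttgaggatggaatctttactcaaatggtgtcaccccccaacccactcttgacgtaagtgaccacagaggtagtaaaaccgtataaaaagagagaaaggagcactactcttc
Il17f, chr1:20784271-20784520, minus strand: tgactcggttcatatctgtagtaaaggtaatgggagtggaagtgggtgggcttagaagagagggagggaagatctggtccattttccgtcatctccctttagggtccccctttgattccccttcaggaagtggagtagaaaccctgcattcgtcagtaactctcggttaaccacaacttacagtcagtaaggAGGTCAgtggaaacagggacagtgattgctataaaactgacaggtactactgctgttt
Il23r, chr6:67491856-67492105, minus strand: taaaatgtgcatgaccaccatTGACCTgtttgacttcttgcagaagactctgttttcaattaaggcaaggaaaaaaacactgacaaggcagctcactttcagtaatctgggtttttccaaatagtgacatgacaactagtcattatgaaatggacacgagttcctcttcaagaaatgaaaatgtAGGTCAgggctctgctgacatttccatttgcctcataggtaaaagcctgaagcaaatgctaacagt
The match began 120 bases before the start in Il17a and 58 in Il17f, and 229 and 66 bases before it in Il23r. Of the 22 type 17 genes, 18 matched an entry, and 5 of these held the letters (5830411N06Rik, Ccr6, Il17a, Il17f and Il23r), against 4260 of 27025 genes with a promoter (15.8%). A match describes the sequence and is not evidence of binding.

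Most genes of tissue residence were higher in these cells, and most of recirculation lower. Of 14 residence genes, 13 were above other Cd3+ cells in both libraries (16.9% over all genes), and Itga1 had no UMI. S100a4, a calcium-binding protein of motile and effector T-cells, was at 1732 and 861 CPM against 90.1 and 54.5. Cd44, an adhesion receptor of experienced T-cells, was 11.9 (9.5 to 14.8) and 5.51 times (4.21 to 7.10) higher, and Itgae, an integrin chain that binds E-cadherin, 13.4 and 6.33 times. Lgals3 was 7.82 and 21.5 times and Capg 8.81 and 4.59 times higher. Cd69, which marks both residence and recent activation, had ratios of 1.59 (0.995 to 2.41) and 1.27 (0.980 to 1.63), with intervals that held 1. The residence genes thus did not stand equally far from the other Cd3+ cells.

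Of 10 recirculation genes, 9 were lower in both libraries and S1pr4 was the exception, at 1.26 and 1.65 times. Among all genes found, 37.4% were lower in both. Ccr7, the receptor that brings T-cells to lymph nodes, had 15 UMIs in 6 control cells and 60 in 19 IR cells, at 0.112 (0.0627 to 0.185) and 0.356 times (0.272 to 0.459) the level of other Cd3+ cells. Lef1, a factor of naive T-cells, was at 0.124 and 0.352 times, and S1pr1, the exit receptor, at 0.179 and 0.359 times. Cd2, Dusp10, Crbn, Rgs10, Cd74 and Fyb joined Trac, Lef1, Ccr7 and S1pr1 among the 10 lowest genes that met the UMI minimum. Cd2, an adhesion receptor of most T-cells, was at 43.6 and 139 CPM against 515 and 525. All 10 were lower in both libraries, and apart from Cd74 their ratios were nearer to 1 in IR, by little for Trac (0.286 and 0.290).

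**Figure D3:**
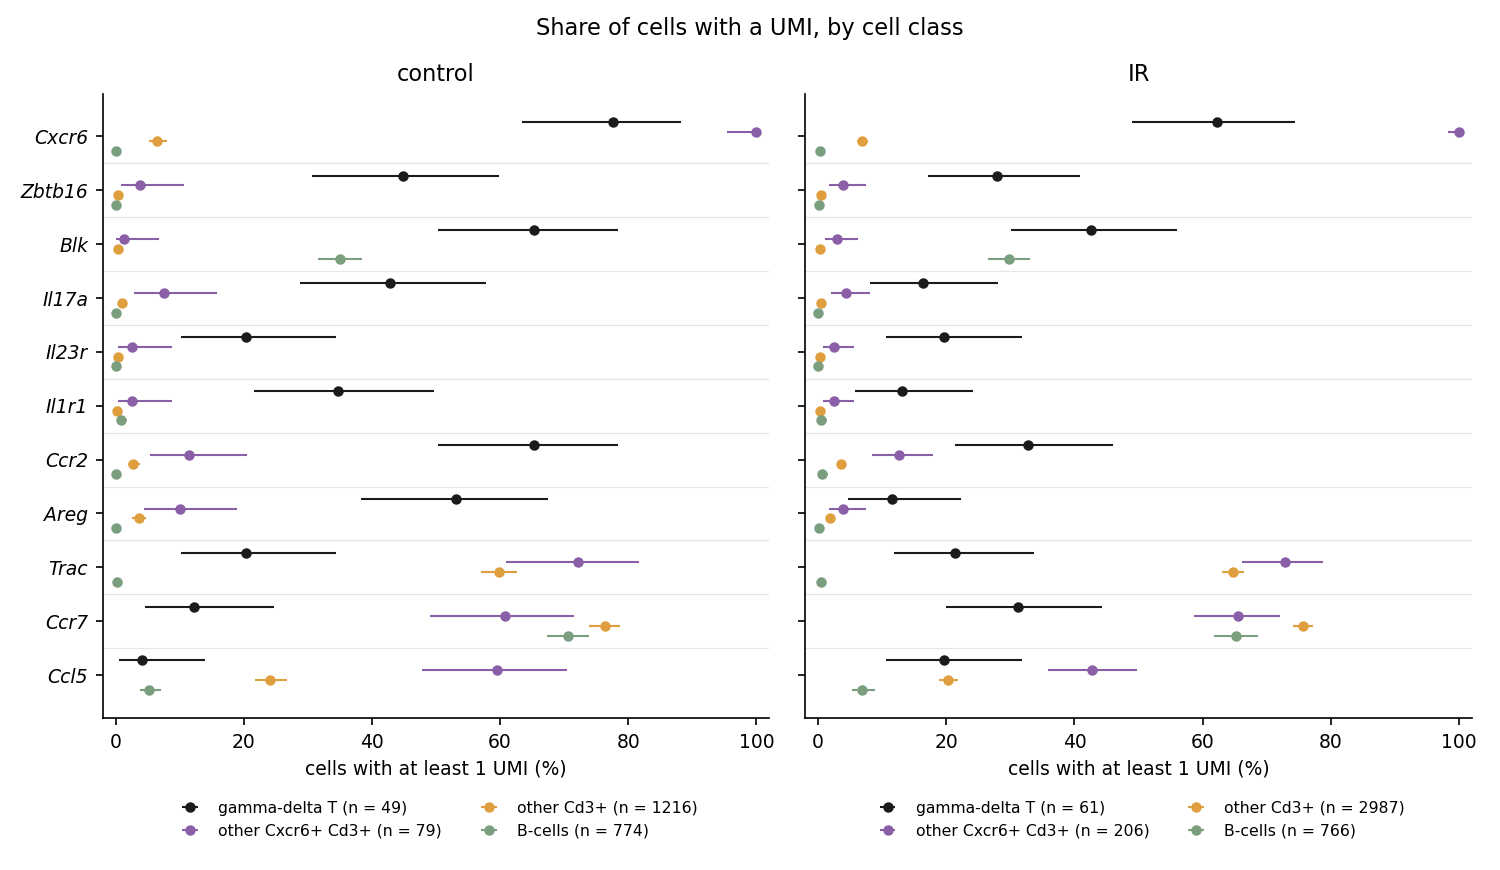
Percentage of cells with at least 1 UMI of 11 genes, in gamma-delta T-cells (black), other Cxcr6+ Cd3+ cells (purple), other Cd3+ cells (orange, which include the purple) and B-cells (green), with 95% intervals for counting error, in the control and IR library. Cxcr6 is 100% in the purple class by its definition. Gamma-delta T-cells lie right of all other classes for Zbtb16, Il17a and Ccr2, and left of other Cd3+ cells for Trac and Ccr7.

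Of 13 chemokine receptor genes, 5 were above and 4 below other Cd3+ cells in both libraries, against 16.9% and 37.4% of all genes. The 5 were Cxcr6, Ccr2, Ccr6, Ccr10 and Cxcr4, the last at 1.26 (0.569 to 2.44) and 1.34 times (0.758 to 2.19) with intervals that held 1. Ccr7 was lower, while Ccr8, Ccr9 and Cxcr5 had no UMI in these cells and intervals that also held 1. Among 12 transcription factor genes of innate-like and naive T-cells, 8 were higher in both libraries and Tcf7 and Lef1 lower. Id2, which opposes the naive programme, was 8.80 (7.16 to 10.8) and 3.80 times (2.94 to 4.85) higher, and Bcl11b, a factor of T-cell identity, 2.63 and 1.59 times.

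Of 17 ligands of repair and growth, 9 were higher in both libraries, where 16.9% of all genes were, and 5 had no UMI in these cells. Areg, at chr5:91139599-91148432, encodes amphiregulin, a ligand of the epidermal growth factor receptor that some tissue T-cells release. It had 197 UMIs in 26 of 49 control cells, at most 32 in 1 cell, and 24 in 7 of 61 IR cells, at most 10. In the control its level was 1227 CPM, 58.4 times (45.6 to 75.2) that of other Cd3+ cells, and in IR 133 CPM, 9.53 times (5.89 to 14.8). Areg was found in 0 of 774 control B-cells, which allows a share of up to 0.388%, and in 0.131% of IR B-cells. Calca, the gene of a neuropeptide made by some lymphocytes, had 38 and 15 UMIs in 11 and 6 cells. Csf2 had 8 and 4 UMIs, Tnf 9 and 12, and Furin, a protease that matures growth factors, was 11.9 and 5.88 times higher.

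Among all genes, 16.9% were higher and 37.4% lower in both libraries, and the counts of the other effector programmes are given against these shares. Of 10 type 2 genes, Areg and Calca were higher in both and 6 had no UMI, Il4, Il5 and Il13 among them. Of 17 type 1 and cytotoxic genes, 4 were higher and 8 lower. Tbx21 had 0 and 1 UMIs, Eomes 1 and 1, and Ifng 0 and 4. Gzmb, which encodes granzyme B, had 90 UMIs in 15 control cells and 8 in 4 IR cells, and Il2rb, a receptor chain for interleukins 2 and 15, was 6.01 and 2.81 times higher than in other Cd3+ cells. Among 12 costimulation and checkpoint genes, 3 were higher and 8 lower in both libraries. Icos was 5.24 and 1.92 times other Cd3+ cells and Tnfrsf9 8.03 (5.79 to 10.97) and 1.13 times (0.451 to 2.36), where the IR interval held 1. Pdcd1 was 15.5 (10.9 to 21.8) and 9.64 times (6.14 to 14.6) higher, while Cd28, the main costimulator of naive T-cells, was at 0.119 and 0.405 times.

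The study named a Cxcr6+ T-cell type from its clusters. Here all Cd3+ cells with a Cxcr6 UMI were divided, and they need not be the cells of that type. Of 117 control Cd3+ cells with a Cxcr6 UMI, 38 (32.5%, 24.1 to 41.8) were gamma-delta T-cells, and of 244 in IR also 38 (15.6%, 11.3 to 20.7). They held 49.3% and 34.2% of the Cxcr6 UMIs of all Cd3+ cells. The other 79 control and 206 IR Cxcr6+ cells held Cd8a or Cd8b1 in 42 and 113, Cd4 in 7 and 17, Trac in 57 and 150, and Trdc in 0 and 4. Il17a was found in 6 and 9 of these, and Zbtb16 in 3 and 8. Most other Cxcr6+ T-cells thus carried Trac, which marked 72.2% and 72.8% of them and 20.4% and 21.3% of gamma-delta T-cells.

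The gamma-delta T-cells were not uniform. Cells with a Cd163l1 UMI were 42 of 49 in the control (85.7%, 72.8 to 94.1) and 39 of 61 in IR (63.9%, 50.6 to 75.8), and after thinning Cd163l1 was found in 72.9% and 51.7%. Those without it were 7 and 22, with median depths of 2091 and 2049 UMIs against 3429.5 and 2891, and with medians of 4 and 3 Trdc UMIs against 14 and 9. Cd163l1 was a gene of the rule, and a shallow cell can lack a UMI by chance, so this split is a description.

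Cells with Cd163l1 carried the type 17 programme. The 21 type 17 genes besides Cd163l1 summed to 6723 CPM (6308 to 7160) in the control and 6253 (5819 to 6712) in IR, with UMIs in 42 of 42 and 38 of 39 cells. In cells without Cd163l1 they summed to 1077 CPM (628 to 1725) in the control, where all 17 UMIs were in 1 cell, and 227 (121 to 388) in IR, where 13 UMIs were spread over 7 of 22 cells. Trdv4 and Tcrg-C1 had no UMI in any cell without Cd163l1, which allows shares of up to 42.9% of 7 and 13.6% of 22 cells, although Tcrg-C4 was found in 6 of the 22. Cxcr6 was found in 37 of 42 and 36 of 39 cells with Cd163l1, and Rora in 40 and 33, against 1 of 7 and 2 of 22 without it.

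Cells without Cd163l1 carried genes of recirculation. The 10 genes summed to 4056 CPM (3124 to 5180) in the control and 5973 (5357 to 6641) in IR, against 587 (469 to 726) and 1563 (1350 to 1800) in cells with Cd163l1. Klf2, a factor that drives exit and homing receptors, was found in 6 of 7 and 22 of 22 cells without Cd163l1 and 10 of 42 and 20 of 39 with it. Ccr7 was found in 6 of 7 and 16 of 22 against 0 of 42 and 3 of 39, and Cd27, a marker of the gamma-delta branch that makes interferon gamma, in 4 and 14 against 1 and 4. Ccl5, a chemokine of cytotoxic T-cells, was found in 0 of 7 and 9 of 22 against 2 and 3, and Nkg7, of cytotoxic granules, in 1 and 13 against 0 and 2. The 17 type 1 and cytotoxic genes summed to 1141 and 3493 CPM in cells without Cd163l1 and 1472 and 1384 in cells with it. Counting cells by 1 gene each way, Cxcr6 and Ccr7 were found together in none of the 49 control cells and 4 of the 61 in IR, where their separate frequencies would give 4.65 and 11.8.

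**Figure D4:**
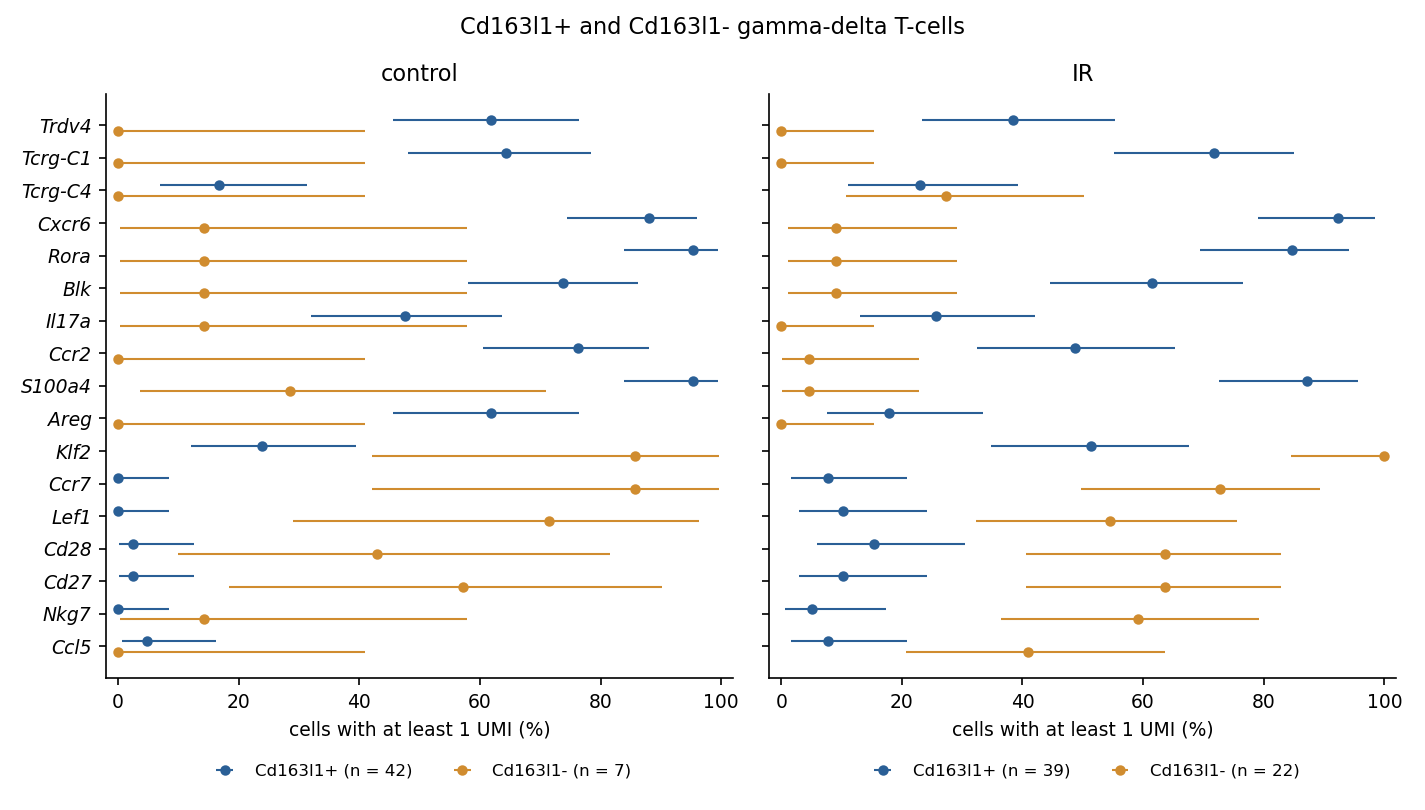
Percentage of cells with at least 1 UMI of 17 genes in gamma-delta T-cells with (blue) and without (orange) a Cd163l1 UMI, with 95% intervals for counting error, in the control and IR library. Blue lies right of orange for Trdv4, Cxcr6, Rora and Ccr2, and left of it for Klf2, Ccr7 and Lef1, with wide intervals for the 7 control cells without Cd163l1.

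To see how these cells differed after IR, the level of each gene in IR was divided by that in the control. A sum of 50 UMIs over the libraries was met by 881 genes, of which 31 (3.52%) were at least 2 times higher in IR and 59 (6.70%) were at most 0.5 times the control, with a median ratio of 0.957. Since the share of cells with Cd163l1 was lower in IR, the ratio was also taken in those cells alone. There, the 31 and 59 genes lay on the same side of 1, but 26 and 27 of them were past the fold, without a minimum of UMIs. Those cells held 144717 of the 160495 control and 122813 of the 180067 IR UMIs. The shared direction is thus largely built in. With the minimum of 50 UMIs applied in those cells, 689 genes could be compared, of which 14 were higher and 21 lower past the fold. These ratios compare 1 library with 1 library, and IR cannot be told apart from any other difference between the libraries.

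Areg was among the genes furthest below the control. Its 197 control and 24 IR UMIs gave a ratio of 0.109 (0.0679 to 0.166), and 0.144 (0.0898 to 0.220) in cells with Cd163l1. The share of cells with Areg was 53.1% (38.3 to 67.5) in the control and 11.5% (4.74 to 22.2) in IR, and 33.3% and 5% after thinning. Without the cell that held most Areg in each library the ratio was 0.0750 (0.0401 to 0.130). In other Cd3+ cells the ratio was 0.665 (0.506 to 0.875).

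Gzmb had a ratio of 0.0792 (0.0332 to 0.163), and 0.105 (0.0439 to 0.215) in cells with Cd163l1, against 0.569 in other Cd3+ cells, and 0.0393 without the top cell of each library. Tnfrsf9, which encodes the costimulator 4-1BB, went from 52 to 7 UMIs with a ratio of 0.120 (0.0460 to 0.265), against 0.851 in other Cd3+ cells. Nr4a3, induced by receptor signals, went from 39 to 12 UMIs, Cstb, a protease inhibitor, from 90 to 21, and Palld, an actin-associated gene, from 38 to 12, while its ratio in other Cd3+ cells was 2.39. Icos, Pdcd1 and Il2rb were lower as well, at 0.448, 0.446 and 0.432 times over all gamma-delta T-cells but 0.566, 0.589 and 0.513 in those with Cd163l1, above the limit of 0.5. In other Cd3+ cells the same 3 genes were at 1.22, 0.717 and 0.923 times.

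Of 10 type 17 genes with enough UMIs, Cd163l1 among them, none passed either limit, which 3.52% of all genes passed upwards and 6.70% downwards, and their median ratio was 0.680 against 0.957 over all genes. Il17a was at 0.630 (0.442 to 0.893) over all gamma-delta T-cells and 0.844 (0.592 to 1.20) in those with Cd163l1, where the interval held 1. The share of cells with Il17a was 42.9% (28.8 to 57.8) in the control and 16.4% (8.15 to 28.1) in IR, and 25% and 11.7% after thinning. Fewer IR cells thus held Il17a, and the shares lay closer after thinning. These shares are over all gamma-delta T-cells, of which 7 of 49 in the control and 22 of 61 in IR lacked Cd163l1. In cells with Cd163l1, Rora, Tmem176a and Il23r stood at 0.885, 0.995 and 1.01 times the control, while Ccr2 and Serpinb1a were at 0.657 and 0.700, with intervals below 1. Among those with fewer UMIs, Il1r1 was at 0.426 (0.188 to 0.910) over all gamma-delta T-cells but 0.589 (0.258 to 1.27) in those with Cd163l1, where the interval held 1, and Il17re, a receptor chain gene, went from 1 to 17 UMIs, the latter in 13 cells.

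Cxcr6 was at 1.13 times (0.892 to 1.43) the control over all gamma-delta T-cells and 1.5 times (1.18 to 1.90) in those with Cd163l1. Of 10 residence genes with enough UMIs, Rgs1, Rgs2 and Cd69 were more than 2 times higher in IR, at 2.08, 2.32 and 2.52, against 3.52% of all genes past that limit. S100a4 was the 1 gene at most 0.5 times, where 6.70% of all genes were, at 0.497 (0.667 in cells with Cd163l1). In other Cd3+ cells Cd69 was 3.14 times the control, Rgs1 1.81 and S100a4 0.604. These 3 genes thus lay on the same side of 1 in gamma-delta and other T-cells. Lgals3, which encodes galectin-3, was 1.57 times the control in gamma-delta T-cells, 2.18 in those with Cd163l1 and 0.572 in other Cd3+ cells.

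Among the genes furthest above the control, several had more IR UMIs in cells without Cd163l1, though their ratios were also above 1 in cells with it. Ccl5 went from 2 to 155 UMIs, a ratio of 69.1 (18.8 to 575), with 113 of the IR UMIs in 9 cells without Cd163l1 and 42 in 3 with it. In cells with Cd163l1 alone Ccl5 was at 24.7 times (6.44 to 211), on 2 and 42 UMIs. Over all gamma-delta T-cells the ratio was 15.2 with a mitochondrial limit of 10%, where the control had 10 Ccl5 UMIs. Without the top cell of each library it was 110 (19.4 to 4387). Cd28 went from 7 to 44 UMIs, Ms4a4b, a membrane gene of T-cells, from 9 to 70, and Ccr7 from 15 to 60, of which 51 were in cells without Cd163l1. The ratio of Cd28 changed from 5.60 to 8.62 without the top cell of each library. In cells with Cd163l1, Cd28 had 1 and 17 UMIs, a ratio of 20.03 (3.14 to 837), Ms4a4b had 1 and 18, a ratio of 21.2 (3.35 to 884), and Ccr7 had 0 and 9. Of these Cd28 UMIs, 6, 5 and 3 were in IR cells with 5557, 5217 and 7835 UMIs, against a median of 2891. The deepest of these cells also held 26 of the 42 Ccl5 UMIs. A shallower cell, with 2685 UMIs, no Trdc UMI and 5 Trac UMIs, held 15 more. A few cells thus carried much of the Cd28 and Ccl5 ratios in cells with Cd163l1. Klf2 went from 71 to 339 UMIs, at 4.26 times (3.29 to 5.58), and was 3.26 times (2.32 to 4.65) higher in cells with Cd163l1 and 2.16 times in other Cd3+ cells. Jun, of the AP-1 complex, was 3.18 times higher, 2.77 in cells with Cd163l1 and 2.5 in other Cd3+ cells. Atp1b3, a sodium pump subunit, and Cited2, a transcriptional coregulator, were 4.01 and 3.02 times higher (Atp1b3 2.24 times with the 10% limit). Klf2 and Jun were thus higher in IR in every class of T-cell compared here, while Ccl5 was at 0.762 times in the other Cd3+ cells.

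**Figure D5:**
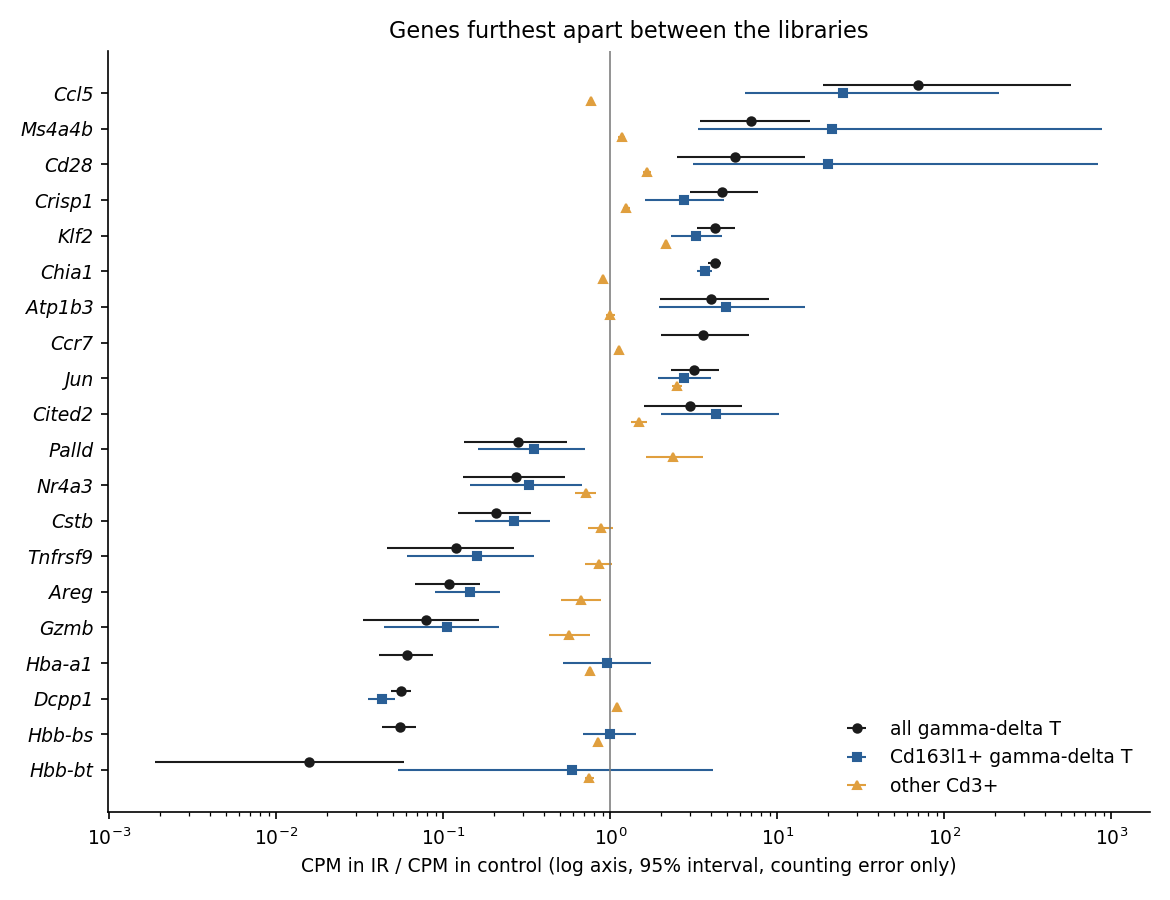
Ratio of the IR to the control level (log axis) for the 10 highest and 10 lowest genes in gamma-delta T-cells (black), with the same ratio in those with Cd163l1 (blue) and in other Cd3+ cells (orange), and 95% intervals for counting error. Areg, Gzmb and Tnfrsf9 lie left of 1 in black and blue, and the haemoglobin genes far left of it only in black. Ccr7 has no blue point because its control count was 0.

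Single cells held a large part of the UMIs of other genes at the ends of the order. The haemoglobin genes Hbb-bs, Hbb-bt and Hba-a1 had 1300, 113 and 470 control UMIs, of which 1222, 108 and 438 were in 1 cell without Cd163l1, and their ratios changed from 0.0548, 0.0158 and 0.0607 to 0.664, 0.176 and 0.576 without the top cell of each library. Of the 3577 control UMIs of the gland gene Dcpp1, 2925 were in 1 cell, and its ratio changed from 0.0561 to 0.271 without the cell with most Dcpp1 in each library. Of 2928 IR UMIs of the gland gene Chia1, 1029 were in 1 cell, as were 61 of the 121 of Crisp1. Their ratios changed from 4.21 and 4.69 to 3.09 and 2.83 without the top cell of each library, so both stayed past the fold. Such genes belong to red cells and gland epithelium. The list of 16 secretory genes made up 8.62% of the control and 10.8% of the IR UMIs of gamma-delta T-cells, against 11.7% and 9.89% in other Cd3+ cells and 11.7% and 9.11% in B-cells. Over 25% of the UMIs were secretory in 1 control and 3 IR gamma-delta T-cells (37.3 to 56.4%). Without these 4 cells Chia1 was at 1.26 and Crisp1 at 1.44 times the control, and the part of such RNA in other values was not tested. Doublets were not removed.

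The 10 heat shock genes summed to 9602 CPM in the control and 5348 in IR, and to 8632 and 5029 in other Cd3+ cells, so the sum was lower in IR in both. Of the 10, none was at least 2 times higher in IR and Hspd1, Dnaja1, Hsph1 and Hsp90aa1 were at most 0.5 times (6.70% of all genes), with a list median of 0.548 against 0.957 over all genes. Hsp90aa1, a chaperone gene, had 279 and 147 UMIs and a ratio of 0.470 (0.382 to 0.575), against 0.516 in cells with Cd163l1 and 0.402 in other Cd3+ cells. Of 16 immediate early genes, 10 could be compared, and Jun and Klf6 were at least 2 times higher (3.52% of all genes). Klf6 was at 2.01 times over all gamma-delta T-cells and 1.30 in those with Cd163l1. Of 10 targets of p53, the factor that responds to DNA damage, only Cdkn1a had enough UMIs, 40 and 22, at 0.490 times (0.589, 0.326 to 1.03, in cells with Cd163l1), and the list summed to 436 and 389 CPM. Of 10 interferon-stimulated genes, 2 could be compared, and Ifi27l2a and Ly6e were at 0.488 and 0.446 times. In cells with Cd163l1 they were at 0.631 (0.313 to 1.22) and 0.514 times (0.272 to 0.929), so neither these genes nor Cdkn1a passed the fold there. The 12 cell cycle genes summed to 20 control and 65 IR UMIs, and 28 of the IR UMIs were of Stmn1 in 1 cell.

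Beside the secretory genes given above, markers of other cell types were read in the gamma-delta T-cells. The 5 B-cell genes outside the rule summed to 31.2 and 88.9 CPM, against 75.1 and 159 in other Cd3+ cells, with 15 of the IR UMIs from Ighm, and Pax5 had none. Of 11 myeloid genes, 6 (Csf1r, C1qa, C1qb, C1qc, Cd68 and Itgax) had none, and the list summed to 517 and 494 CPM against 941 and 831 in other Cd3+ cells. The 8 genes of natural killer cells outside the rule summed to 18.7 CPM in the control and 167 in IR, against 91.8 and 86.8 in other Cd3+ cells, so the IR level was the higher. They had 3 and 30 UMIs, of which Fcer1g and Tyrobp made up 17 and 10 in IR, each in 3 cells. Cdh5, Kdr, Col1a1, Col1a2 and Col3a1 of the vessel and stroma list had no UMI, and Vim, which lymphocytes also express, made up 133 of its 134 control and 163 of its 174 IR UMIs, a sum of 835 and 966 CPM against 423 and 509.6. Of the mast cell and innate lymphoid genes Cpa3, Kit, Mcpt4 and Tpsb2 had no UMI, and Gata3, which T-cells also express, had 19 and 2. The part of such RNA in the results was not tested.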

How the data were processed

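Single cells of parotid glands were sequenced with the 10x Chromium chemistry. Per the labels and the study's methods, the authors aligned reads to mm10 with Cell Ranger 3.0.1, and the deposited values are raw UMI counts per gene and barcode. As in the study, a barcode was kept if it had 200 genes or more and no more than 5% mitochondrial UMIs. Class sums were formed separately per library and converted to CPM with Python 3.11.15, numpy 2.4.6, pandas 2.3.3 and scipy 1.17.1. Sums have exact Poisson, shares Clopper-Pearson and ratios conditional binomial 95% intervals. Cells are not replicates, so no test was run. The steps were tested on simulated counts. With 160495 and 180067 UMIs in all, genes under about 25 UMIs have wide intervals. A count of 0 was given a limit of 3 cells.

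The choice of cells, the 24 gene lists (270 genes) and the fold of 2 were made with earlier results of these data known. Listed genes, the 15 highest and 10 lowest genes against other Cd3+ cells and the 10 highest and 10 lowest between the libraries could be named. Sequences came from GENCODE M21 and RefSeq, aligned with Biopython 1.88. Doublet scores (Scrublet in scanpy 1.11.5) and TMM factors (edgeR 4.0.16) served as alternatives only. Some genes of the lists are counted in the sums and are not reported here by name.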

Additional observations from a re-analysis of the deposited data

How the results depend on the processing

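No paired analysis was possible because each condition had 1 library. The shares of gamma-delta T-cells, the share of them with Cxcr6 and the counts past the fold stayed within their error or within 1.5 times under mitochondrial limits of 10% and none, a minimum of 500 genes, a sum of 3 over the chosen genes, a required Trdc UMI and removal of the 6% highest doublet scores. So did the shares of gamma-delta T-cells with the rule applied after thinning or Ptprc+ cells as the denominator, both counts past the fold in CPM without abundant genes, and the count between the libraries with TMM factors. Against CD8, CD4 or other Cxcr6+ T-cells the 129 genes became 145, 122 and 92, and the 108 higher ones 113, 90 and 66. TMM factors shifted the median IR over control ratio from 0.957 to 0.890 and gave 25 higher and 73 lower genes instead of 31 and 59. With Cd3+ cells as the denominator the shares were 3.87% and 2.0%, and thinning gave Cxcr6 shares of 39.6% and 43.3%.

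The count of 90 genes between the libraries became 338 (182 higher, 156 lower) with at least 20 UMIs, 38 with at least 100, 234 at 1.5-fold and 21 at 3-fold, and the 129 genes against other Cd3+ cells became 220 at 1.5-fold and 63 at 3-fold. Without members holding Trac, Trbc1 or Trbc2, only 5 and 2 cells remained, so shares were 0.148% and 0.0378%, and Cxcr6 was found in 100% of the 2 IR cells. With these cells 58 genes (9 higher, 49 lower) passed between the libraries and 10 (0 higher, 10 lower) against other Cd3+ cells. The direction turned for Cited2 (0.697), Cdkn1a (4.18), Klf6 (0.174), Rgs1 (0.310) and Rgs2 (0.697).

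Chosen after seeing the data, cells with Cd163l1 alone gave an IR share of 0.738%, Cxcr6 in 92.3% and 35 genes (14 higher, 21 lower). Without the 4 cells rich in secretory UMIs 68 genes passed, and Amy1 (0.818) and Pip (0.842) turned. Of 1019 ratios of 93 named genes under 12 settings, 886 kept within the interval of the reported value, 126 moved and 7 turned. Ccl5 was at 15.2 instead of 69.1 with a mitochondrial limit of 10% and at 14.7 with none. With 49 and 61 cells, a gene on few UMIs can be set by 1 cell.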

Other observations

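Ligands and receptors that meet these cells were read in the other cell classes of the same libraries, with no test. Cxcl16, the ligand of Cxcr6, had no UMI in gamma-delta T-cells and was highest in myeloid cells, at 207 CPM in 44 of 145 control cells and 236 CPM in 39 of 112 IR cells, against 28.6 and 42.1 CPM in endothelial and 3.75 and 7.84 in epithelial cells. Il1b, whose product acts through Il1r1, was also highest in myeloid cells, at 442 and 673 CPM. Il23a, the ligand chain for Il23r, had 1 UMI in IR myeloid and 2 in IR epithelial cells and none in the other classes read, and Ccl20, the ligand of Ccr6, had no more than 7 UMIs in any class.

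The receptor for amphiregulin, Egfr, had 9 UMIs in 614 control and 8 in 624 IR epithelial cells, which is too few to compare. Il17ra, a receptor chain for the product of Il17a, was at 38.6 and 40.6 CPM in other Cd3+ cells, 9.52 and 11.2 in endothelial and 2.19 and 2.77 in epithelial cells. It was at 24.9 and 55.5 CPM in gamma-delta T-cells, on 4 and 10 UMIs, 29.9 and 34.5 in B-cells and 7.58 and 14.7 in myeloid cells. In natural killer cells it had 0 and 3 UMIs. Its partner Il17rc was at 2.09 and 3.38 CPM in epithelial cells and higher in endothelial cells, at 12.7 and 14.0 CPM on 4 and 5 UMIs. Calcrl, which forms the receptor for the product of Calca together with Ramp1, was highest in endothelial cells, at 114 and 129 CPM, and had 1 UMI in the gamma-delta T-cells of each library, where Ramp1 had 13 and 26 and Ramp3 121 and 124.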
